A study of Mus musculus with 20 samples.

Results

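The 9 genes described here are those of the pigment cell and of its pigment: Tyr, Tyrp1, Dct, Mlana, Oca2, Slc45a2, Mc1r, Mitf and Kit. They are 9 of the 18194 genes that have a probe set of their own on the array, and 17 of its 45101 probe sets are annotated to 1 of these symbols alone. Where a gene had several probe sets, its values come from the one selected on the highest mean signal over the 19 arrays in groups, and the others serve as a check. That mean (from 1049 for Oca2 to 7059 for Tyrp1) chose the probe set and is given as a description only. All 9 genes passed the filter on low signal, a mean of at least 300 over the 19 arrays.

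The study profiled mouse flank tissue in the Ad-VEGF-A164 flank model, in which an adenoviral vector makes the tissue produce VEGF-A164, an isoform of the vascular growth factor VEGF-A. RNA of 20 samples was hybridised, 1 sample to each Affymetrix mouse array. The control group is 5 arrays of day 0 tissue without the vector, and the treated groups are 4 arrays of day 5, 5 of day 20 and 5 of day 60 after Ad-VEGF-A164. One more array, titled as day 5 replicate A, carries a day 0 control label in another field and is in no group. Control, day 20 and day 60 arrays are lettered A to E and day 5 arrays B to E. The labels used here name no strain, coat colour, sex, age, hair cycle stage or dose. No group received an empty vector, and all controls are of day 0. In any comparison with control, the effects of VEGF-A, of the adenovirus, of its injection and of harvest time therefore cannot be told apart. The labels do not say whether each array is a separate animal, so the p-values measure only how far these samples differ, and that spread may be technical.

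Melanin is made in melanocytes, pigment cells of neural crest origin that in furred mouse skin reside mainly in the hair follicles. Tyrosinase, the product of Tyr, starts the synthesis from tyrosine, and the related enzymes encoded by Tyrp1 and Dct act on later steps of the black and brown pigment. The work is done in melanosomes, organelles whose pH and structure depend on membrane proteins such as those of Oca2, Slc45a2 and Mlana. MITF is the transcription factor that governs these genes, the melanocortin receptor encoded by Mc1r signals to it, and the receptor tyrosine kinase KIT is needed for melanocyte survival and migration. In follicles, pigment is made while a hair grows and not while the follicle rests.

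MITF binds E-box sequences. Promoters of the 3 enzyme genes are shown because Tyr, Tyrp1 and Dct had the members' largest changes from day 20 to day 60. The lines give the 250 bases before each gene's annotated start, 5′ to 3′ on the gene's strand, from RefSeq on GRCm38.p6. Capitals mark CATGTG on either strand (CACATG on the other), the core of the element known as the M-box.
Tyr (chr7:87493513-87493762, minus strand): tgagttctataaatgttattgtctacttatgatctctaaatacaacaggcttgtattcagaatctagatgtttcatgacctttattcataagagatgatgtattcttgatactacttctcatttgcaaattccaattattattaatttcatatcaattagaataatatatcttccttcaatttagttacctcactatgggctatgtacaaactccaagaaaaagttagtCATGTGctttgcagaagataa
Tyrp1 (chr4:80833963-80834212, plus strand): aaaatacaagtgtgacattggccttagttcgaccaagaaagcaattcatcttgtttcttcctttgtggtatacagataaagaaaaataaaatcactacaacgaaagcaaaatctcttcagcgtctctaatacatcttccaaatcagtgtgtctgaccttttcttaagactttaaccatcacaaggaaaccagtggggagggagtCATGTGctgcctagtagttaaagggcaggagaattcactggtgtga
Dct (chr14:118052247-118052496, minus strand): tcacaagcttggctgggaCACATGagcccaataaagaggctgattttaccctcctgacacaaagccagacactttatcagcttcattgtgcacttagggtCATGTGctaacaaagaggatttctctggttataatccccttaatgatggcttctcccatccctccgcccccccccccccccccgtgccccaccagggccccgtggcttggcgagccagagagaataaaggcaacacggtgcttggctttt
The match began at position -21 from the annotated start in Tyr and at -46 in Tyrp1. Dct had 2 matches, the farther one at -232. RefSeq promoter windows of 300 bases, 250 before and 50 after a start, were found for 7 of the 9 genes and not for Mlana or Slc45a2. These genes have 10 windows, of which 5 held a match, 1 each of Tyr, Tyrp1, Dct, Oca2 and Mc1r. The letters were not in the other 5 windows, which belong to Mitf and Kit. Of all 32851 promoter windows of that length, 4650 (14.2%) held CATGTG on either strand. The related E-box CACGTG, which shares no hexamer with it, was in 7.15% of all windows and in none of the members' windows. A match describes letters only and is not shown to be a bound site.

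The treatment label was checked with Vegfa. One of its probe sets gave 66.5 to 467 in control and 3927 to 9410.0 at day 5. It gave 7128 to 13514 at day 20 and 219 to 1076 at day 60. The treated day 5 and day 20 arrays were apart from the controls, and day 60 overlapped them. A second Vegfa probe set gave 1344 to 2629 in control, 640.3 to 797 at day 5, 851 to 1177 at day 20 and 1012 to 2325 at day 60. Median signal per array was 406 to 569 over the 19 arrays, and the number of arrays limits the precision of every comparison.

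These 9 genes and the gene lists below were chosen with earlier results of these data known. Their counts beside the shares of all genes are therefore descriptions and not a test. From day 20 to day 60, 7 of the 9 genes rose and 0 fell, where 11% of all tested genes rose and 11.2% fell. At day 20 against control 0 were higher and 4 were lower, where 15.6% and 14.5% of all tested genes were. At day 60 against control 1, Tyr, was higher and 0 were lower, where 0.368% and 0.765% of all tested genes were. Signal is the MAS5 value of a probe set, on a linear scale after background correction. Differences below are on the log2(signal + 100) scale, with SE, where the constant of 100 makes the change of dim genes look smaller than it is. A gene is called where limma's adjusted p over the 13595 genes tested was under 0.05. Signals of different probe sets are not comparable in level, so levels are compared within a gene only. In tissue RNA, fewer cells of a type and less RNA per cell cannot be told apart. The 6 comparisons share arrays with each other, so a gene's values in them are not separate evidence.

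**Figure D1:**
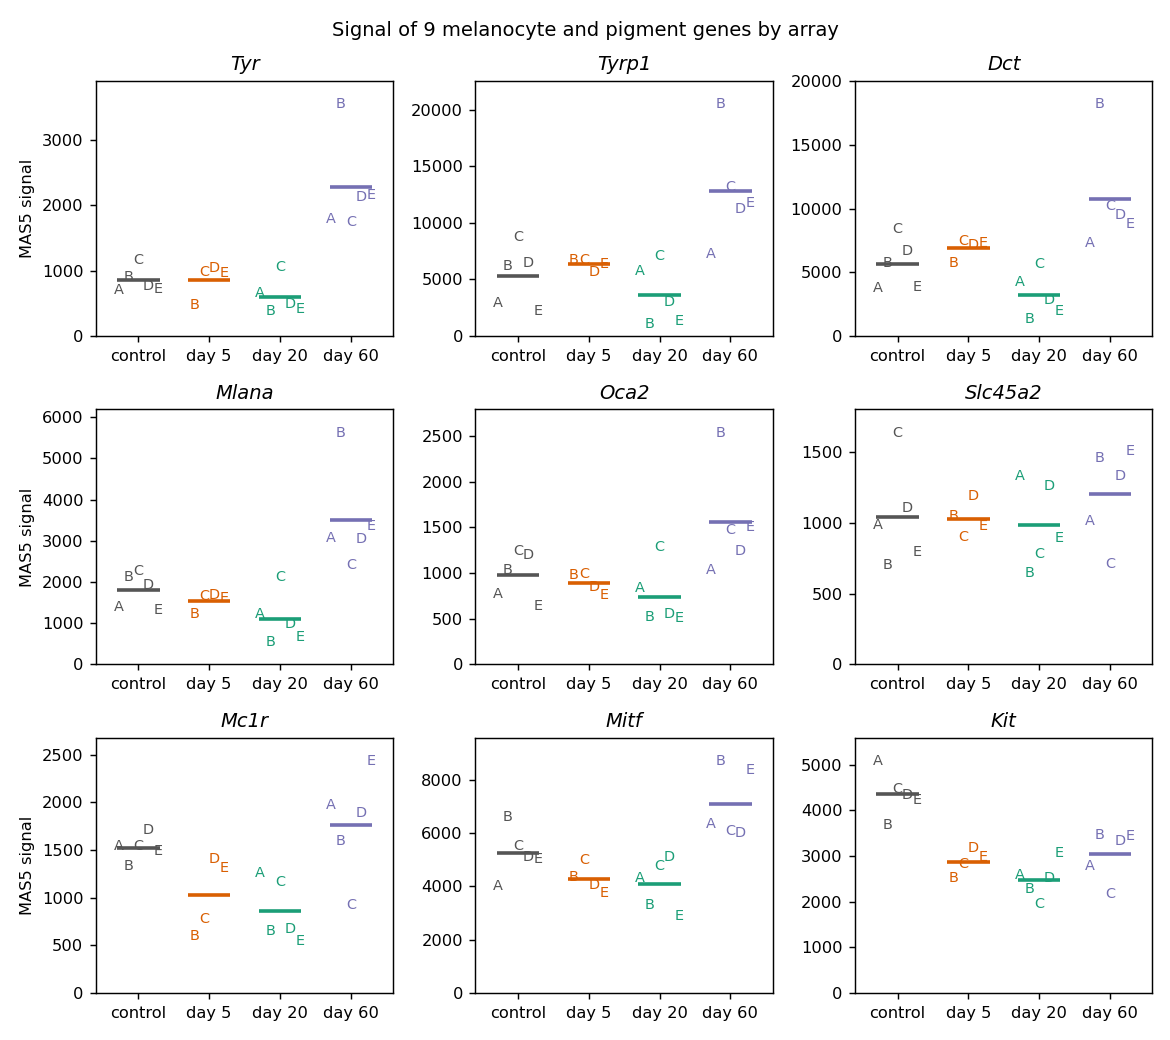
Signal of each of the 9 genes (y axis, MAS5 signal, linear from 0) in the 4 groups (x axis). Each letter is 1 array and the horizontal line is the group mean. All 5 day 60 arrays lie above all control and day 20 arrays for Tyr, and all day 5, day 20 and day 60 arrays lie below all control arrays for Kit.

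Tyr, the gene of tyrosinase, had the smallest adjusted p of the members from day 20 to day 60. The Tyr signal was 707, 901, 1166, 763 and 722 in control arrays A to E. At day 5 it was 470.3, 982, 1040.2 and 959 in arrays B to E, and at day 20 it was 662, 386, 1056, 482 and 411 in arrays A to E. At day 60 it was 1780.2, 3542, 1738, 2130.1 and 2155. Every day 60 array was thus above every array of the other groups, while control, day 5 and day 20 overlapped. Tyr rose 3.46-fold from day 20 to day 60 (1.79 ± 0.25, limma adjusted p = 3.89e-05). It was 2.47-fold higher at day 60 than at day 5 (1.303 ± 0.26, limma adjusted p = 0.00137). Against control it was 2.44-fold higher at day 60 (1.29 ± 0.25, limma adjusted p = 0.0191). That last call was lost without control array A (adjusted p = 0.0578) or control array E (adjusted p = 0.0563), at a nearly equal change.

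Tyrp1 encodes an oxidase of the eumelanin branch. Its signal was 2954, 6212, 8739, 6449 and 2247 in control and 6681, 6706, 5679.8 and 6373 at day 5. At day 20 it was 5698, 1094, 7058, 3014 and 1319.8, so that arrays B and E were far below A and C. At day 60 it was 7265, 20475, 13185, 11259 and 11707, all above all day 20 arrays, with array A only narrowly so. Tyrp1 rose 4.15-fold from day 20 to day 60 (2.05 ± 0.44, limma adjusted p = 0.00236). The difference from control at day 60 was of similar size to that of Tyr but did not pass (1.34 ± 0.44, limma adjusted p = 0.132). The coefficient of variation of Tyrp1 was 50.4% in control, 7.51% at day 5, 73% at day 20 and 37.8% at day 60. That of Tyr was 22.5%, 30.6%, 46.2% and 32.5%, so Tyrp1 was the more even of both genes at day 5 and the less even in the other groups.

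Dct encodes dopachrome tautomerase, which acts between the other 2 enzymes' steps. Its signal was 3767, 5703, 8379, 6666 and 3819 in control, and 5713, 7436, 7179 and 7289.8 at day 5. At day 20 the signal was 4206, 1339, 5677, 2824 and 1999, and at day 60 it was 7287, 18214, 10188, 9486 and 8831. All day 20 arrays were below all day 5 and all day 60 arrays, and they overlapped the controls. Dct fell by 1.24 ± 0.34 from day 5 to day 20 (2.37-fold, limma adjusted p = 0.0366) and rose 3.52-fold from day 20 to day 60 (1.82 ± 0.32, limma adjusted p = 0.000405). It was also lower at day 20 than in control (-0.90 ± 0.32, limma adjusted p = 0.0375). At day 60 it was 0.91 ± 0.32 above control, which did not pass (limma adjusted p = 0.151).

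Among the genes of melanosome membrane proteins, Mlana followed Tyr and Dct most closely (Pearson r = 0.95 and 0.93 over the arrays). For Tyrp1, Oca2 was slightly closer (0.92) than Mlana (0.91). Mlana encodes a small melanosome protein that serves as a melanocyte marker. Its signal was 1404, 2133, 2268, 1917 and 1315 in control and 1228, 1650.0, 1674 and 1621 at day 5. It was 1225, 539.8, 2118, 985 and 659 at day 20 and 3059, 5624, 2424, 3052 and 3351 at day 60. Every day 60 array exceeded every other array of the series' groups, and day 20 array C lay within the control range. Mlana fell by 0.77 ± 0.27 from control to day 20 (limma adjusted p = 0.0390). It rose 3.17-fold from day 20 to day 60 (1.66 ± 0.27, limma adjusted p = 0.000231) and was 2.12-fold higher at day 60 than at day 5 (1.08 ± 0.29, limma adjusted p = 0.0103). Against control, day 60 was 0.89 ± 0.27 higher and did not pass (limma adjusted p = 0.108) although the arrays did not overlap.

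Oca2, which encodes a melanosome chloride channel, moved less. Its control signals ran from 637 to 1244 and its day 5 signals from 762 to 989. Day 20 arrays read 834, 515, 1284, 555 and 507, and day 60 arrays 1035, 2536, 1473, 1239 and 1500.4. Day 20 array C stood among the day 60 arrays, so these groups overlapped. Oca2 was 2.00-fold higher at day 60 than at day 20 (0.999 ± 0.24, limma adjusted p = 0.00595) and passed in no other comparison.

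Slc45a2 encodes a transporter of the melanosome membrane and has 2 tested probe sets that did not give the same calls. The brighter one passed in none of the 6 comparisons. Its signals were 702 to 1637 in control, 903 to 1187 at day 5, 645 to 1331 at day 20 and 709 to 1505 at day 60. The other probe set, mean 873, read 781 to 1382 in control and 474 to 713 at day 20, without overlap. It read 484 to 1185 at day 5 and 909 to 1339 at day 60. In a fit of all probe sets it was lower at day 20 than in control (-0.63 ± 0.21, limma adjusted p = 0.0311) and higher at day 60 than at day 20 (0.70 ± 0.21, limma adjusted p = 0.0235). The brighter probe set was -0.07 ± 0.23 and 0.27 ± 0.23 in these comparisons, with the same signs and no call, so the call for Slc45a2 rests on which probe set is read.

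Of the receptor and regulator genes, Mc1r, Mitf and Kit differed less from day 20 to day 60 than the 3 enzyme genes, while at day 5 against control Mc1r (-0.60, not called) and Kit (-0.58) differed more. Mc1r encodes the melanocortin 1 receptor, which turns melanocytes to dark pigment. Its signal was 1545, 1335, 1543, 1706 and 1491 in control, an even group with a coefficient of variation of 8.72%. At day 5 it was 599, 780.2, 1409 and 1311, with arrays B and C lowest. At day 20 it was 1258, 646, 1168, 674 and 541, all below all controls, and at day 60 1975, 1589, 922, 1885 and 2431. Mc1r fell by 0.83 ± 0.26 from control to day 20 (limma adjusted p = 0.0199) and was 1.95-fold higher at day 60 than at day 20 (0.96 ± 0.26, limma adjusted p = 0.0104). Day 60 array C was below 2 of the day 20 arrays.

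Mitf encodes the transcription factor that controls the pigment genes and is also made in other cells, among them macrophages and mast cells. Its signal was 4004, 6597, 5516, 5102 and 5026 in control and 4340.0, 5009, 4055 and 3748 at day 5. It was 4304, 3289, 4782, 5111 and 2899.7 at day 20 and 6349, 8711, 6078, 6014 and 8363 at day 60. Day 60 was above all of day 5 and day 20 but overlapped control, where array B reached 6597. Mitf rose 1.74-fold from day 20 to day 60 (0.80 ± 0.17, limma adjusted p = 0.0019) and was 1.63-fold higher at day 60 than at day 5 (0.70 ± 0.18, limma adjusted p = 0.0069). Neither day 5 (-0.28 ± 0.18), day 20 (-0.37 ± 0.17) nor day 60 (0.43 ± 0.17) passed against control (limma adjusted p = 0.246, 0.103 and 0.207).

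Kit, the receptor of stem cell factor, was lower in every treated array than in any control array. Its signal was 5082, 3682, 4463, 4334 and 4234 in control and 2518, 2828, 3188 and 2973 at day 5. It was 2581, 2277, 1952, 2517 and 3072 at day 20 and 2788, 3472, 2174, 3339 and 3445 at day 60. The highest treated array, at 3472 on day 60, lay below the lowest control, at 3682. Kit fell by 0.58 ± 0.15 at day 5 (limma adjusted p = 0.00556) and by 0.80 ± 0.14 at day 20 (1.74-fold, limma adjusted p = 0.000288). At day 60 it was 1.43-fold lower, which did not pass (-0.52 ± 0.14, limma adjusted p = 0.0768). The difference between day 60 and day 20 was 0.28 ± 0.14 (limma adjusted p = 0.170).

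The counts of members called are read against the share of all tested genes called in the same direction. The members were chosen with earlier results known, so this describes them and tests nothing. At day 5 against control, 0 members were higher and 1, Kit, was lower, where 16.8% of all tested genes were higher and 17.5% lower. The median member differed by -0.08 and the median tested gene by -0.07. At day 20 against control, 0 were higher and 4 lower (Kit, Mc1r, Dct and Mlana). The median was -0.72 over the members and -0.06 over all genes. At day 60 against control, where Tyr was the 1 member called, the medians were 0.60 and 0.01. When each array was instead centred on its 75th percentile, 30 genes were higher and 107 lower at day 60, against 50 and 104 in the values used here.

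Between treated groups the members moved mainly upward with time after day 20. From day 20 to day 60, 7 members rose and 0 fell, and Kit and Slc45a2 did not pass. The members' median was 0.999 and that of all genes 0.03. In 5 of the 9 members (Tyr, Tyrp1, Dct, Mlana and Mitf) all day 60 arrays were above all day 20 arrays, which held for 7.02% of all genes. From day 5 to day 20, 1 member (Dct) fell and 0 rose, where 2.25% fell and 3.05% rose. From day 5 to day 60, 3 members rose (Tyr, Mlana and Mitf) and 0 fell, while 12.2% of all genes rose and 12.2% fell. In that comparison all day 60 arrays were above all day 5 arrays in 5 members, the 3 named and Tyrp1 and Oca2, which held for 9.81% of all genes.

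**Figure D2:**
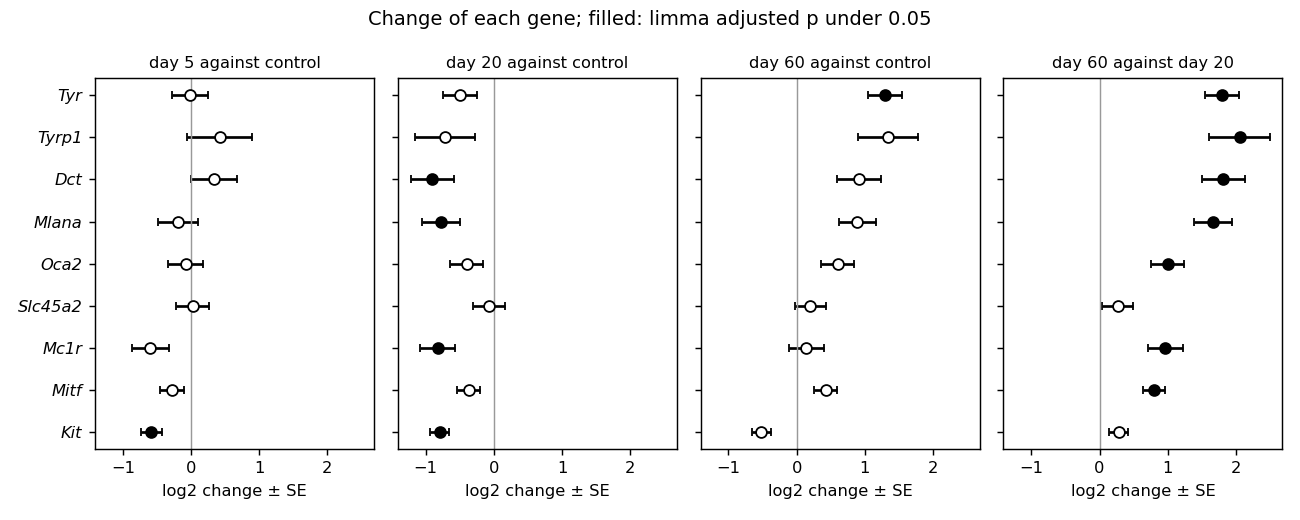
Difference of each gene (x axis, log2 change with SE bars) in 4 comparisons, 1 panel each, genes on the y axis; filled points passed limma's adjusted p of 0.05. The filled points are Kit at day 5, Dct, Mlana, Mc1r and Kit at day 20, Tyr at day 60 against control, and 7 genes at day 60 against day 20.

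The day 20 values depended on 2 arrays. Arrays B and E of day 20 gave the lowest signal of their group in 8 of the 9 members between them (5 for B and 3 for E), Kit being the exception with its lowest value in array C. Array C was the highest of the group in 5 members. Without arrays B and E only 1 of the 4 falls against control was called, that of Kit (-0.87, limma adjusted p = 0.00106). Dct was then -0.40 (limma adjusted p = 0.372), Mlana -0.34 (limma adjusted p = 0.388) and Mc1r -0.56 (limma adjusted p = 0.182), and the fall of Dct from day 5 to day 20 was no longer called either. Leaving out single arrays also ended calls. The falls of Dct and Mlana against control were each lost without control B, C or D or day 20 B, D or E. That of Mc1r was lost without day 20 B or E, and that of Dct against day 5 without any day 5 array or day 20 B, D or E.

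The rise from day 20 to day 60 was smaller without those 2 arrays but held for 5 members. Tyr was then 1.52 higher (limma adjusted p = 0.00125), Dct 1.31 (limma adjusted p = 0.00656) and Mlana 1.23 (limma adjusted p = 0.00434). Tyrp1 was 1.27 higher in place of 2.05 (limma adjusted p = 0.0373), and Mitf 0.56 (limma adjusted p = 0.0363). Oca2 (0.75, limma adjusted p = 0.0809) and Mc1r (0.70, limma adjusted p = 0.119) no longer passed.

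Hair follicle and epidermal genes were low in the same 2 day 20 arrays. The summed signal of 23 genes of the growing hair follicle was 41635 in day 20 array E and 59778 in array B. It was 287876 to 376245 in the other 3 day 20 arrays. The controls ran from 212793 to 734523, day 5 from 190000.0 to 361978 and day 60 from 352393 to 733677. The sum over 12 epidermal genes was 6370.0 in day 20 array E and 8825 in B, against 24130.0 to 91786 in the other 3.

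**Figure D3:**
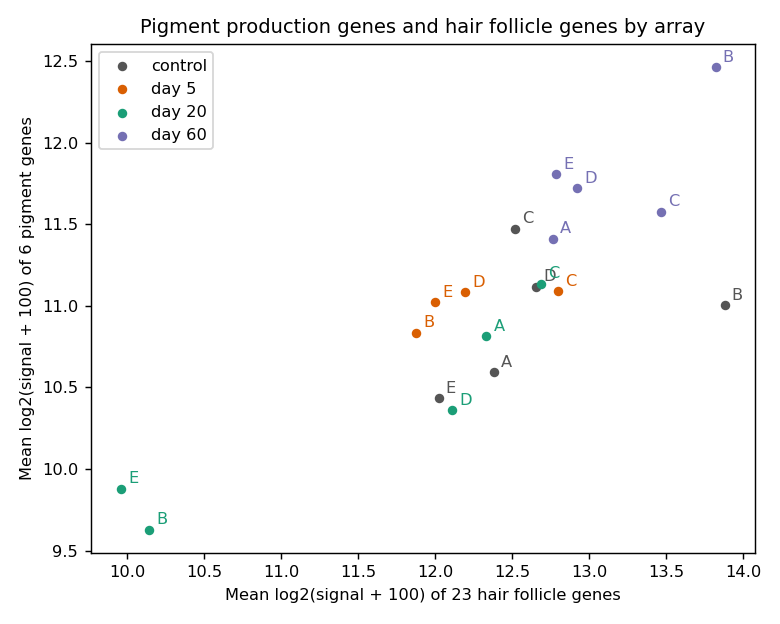
Mean log2(signal + 100) of 6 pigment production genes (Tyr, Tyrp1, Dct, Mlana, Oca2 and Slc45a2, y axis) against that of 23 hair follicle genes (x axis), 1 point per array, coloured by group and lettered by replicate. Day 20 arrays B and E lie at the lower left, at 9.63 and 9.88 on the y axis, and day 60 array B at the upper right, at 12.46.

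Across the 19 arrays the mean of the 6 pigment production genes correlated with the mean of the 23 hair follicle genes at Pearson r = 0.83, and at 0.75 after the group means were subtracted. With the 12 epidermal genes r was 0.78, and 0.74 within groups. These are descriptions over arrays that share a chip, a scaling and a piece of tissue. Day 20 arrays B and E were lowest of the 19 in each of these means, and r without them is not given. Control array B had the highest hair follicle mean (13.88) at a pigment mean of 11.00, within the control range. Of the hair follicle genes, 2 of 23 fell at day 5 against control, where 17.5% of all tested genes did. At day 20 against control 13 fell, where 14.5% of all tested genes did. At day 60 against control 0 passed, and 16 rose from day 20 to day 60, where 11% of all tested genes did. The medians of the 23 were -0.54, -1.28, 0.56 and 1.94 in that order. Examples are Krt73, a keratin of the inner root sheath (-1.97 ± 0.52 at day 20, limma adjusted p = 0.00766), and Gata3, a transcription factor of the inner root sheath (-1.96 ± 0.39, limma adjusted p = 0.00085). Without day 20 arrays B and E, 3 of the 23 fell at day 20 against control and 11 rose from day 20 to day 60. The shares of all genes in that fit are not given here. The 13 falls were 8 without day 20 B, day 20 E or control B alone, and the 2 at day 5 were 0 without control B, day 5 B or day 5 E and 1 without 9 of the other arrays. Of 12 epidermal genes, 0 passed at day 5 and 2 fell at day 20, a count near the 14.5% of all tested genes. These were Trp63 (-1.75 ± 0.36, limma adjusted p = 0.00105) and Krt5 (-1.50 ± 0.34, limma adjusted p = 0.00268). At day 60 against control 0 passed, and 6 rose from day 20 to day 60, where 11% of all tested genes did. Those 6 became 2 without day 20 arrays B and E, and 3 without either alone. The 2 falls at day 20 became 6 without control E and 5 without day 20 A or C. The part of follicle and epidermis content in the pigment gene values was not tested.

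Signs of RNA quality also differed between groups. The ratio of the Actb 3′ to 5′ probe sets, which rises as RNA is shorter, averaged 7.10 in control, 4.82 at day 5, 4.48 at day 20 and 8.82 at day 60. It was highest in day 60 arrays A (14.0), D (10.9) and B (10.4). Without those 3 arrays only day 60 arrays C and E remained, so the comparison was also less precise. Tyr was then 1.12 above control at day 60, against 1.29 with all arrays, and did not pass (limma adjusted p = 0.151). In the comparison of day 60 with day 20, 6 of the 7 rises were then still called, and Mc1r was not (0.82, limma adjusted p = 0.163). Mlana was then not called against day 5 (0.85, limma adjusted p = 0.130). With the ratio as a covariate Tyr was still called against control at day 60, and Kit was called too (-0.55, limma adjusted p = 0.0428). At day 20 against control Mc1r (limma adjusted p = 0.0666) and Mlana (0.0625) were then no longer called, and Mitf was (-0.52, limma adjusted p = 0.0290). The rise of Mc1r from day 20 to day 60 was lost as well (limma adjusted p = 0.0633).

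The pigment production genes moved together from array to array. Over the 10 pairs among Tyr, Tyrp1, Dct, Mlana and Oca2 Pearson r ran from 0.85 to 0.96 over the 19 arrays, with a median of 0.91. After group means were subtracted it ran from 0.71 to 0.95. Slc45a2 correlated with these 5 at 0.39 to 0.48 and Kit with the other members at 0.01 to 0.54. Mitf lay between, at 0.75 to 0.88 with those 5. All are descriptions over arrays that share chip and scaling.

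**Figure D4:**
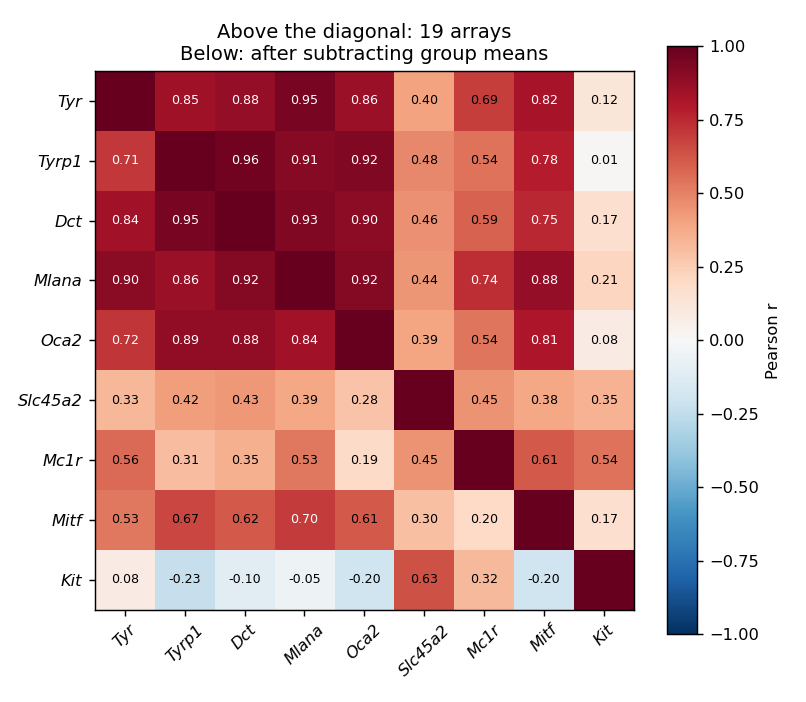
Pearson r of log2(signal + 100) between the 9 genes, above the diagonal over 19 arrays and below it after group means were subtracted; colour runs from blue at -1 to red at 1. The block of Tyr, Tyrp1, Dct, Mlana and Oca2 is dark red above and below it (0.85 to 0.96 and 0.71 to 0.95), and most cells of Kit are pale.

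Of all tested genes, those nearest to each member by r over the 19 arrays were in part other members. Tyrp1 and Dct were each other's nearest gene (r = 0.96), as was Mlana for Tyr (r = 0.95). Gpr143, a melanosome receptor gene outside the members, was the nearest gene of Mlana (r = 0.95) and among the 3 nearest of Tyr, Dct and Oca2. Ptgds, a prostaglandin D synthase gene, was second for both Tyrp1 (r = 0.94) and Dct (r = 0.96), and Daam1 was second for Tyr (r = 0.92). The nearest to Mitf was Pcdh7 (r = 0.93), followed by Slc39a8 and Zfp266. For Mc1r it was Bcl7c (r = 0.88), followed by Gatad2b and Adgrg6. The nearest to Kit was Dusp4 (r = 0.90), then Btn1a1 and Abcd2. For Slc45a2 the highest r was lower, 0.75 with Dzank1, and Kazn and Car10 followed.

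The other probe sets of the members were read as a check. Of the 17, 3 were too dim to test: one each of Kit, Mc1r and Mitf, with means of 147, 66.3 and 279. Tyr has 2 more tested probe sets. One (mean 759) rose from day 20 to day 60 by 2.30 ± 0.35 (limma adjusted p = 0.000121), and was lower at day 20 than in control by -1.10 ± 0.35 (limma adjusted p = 0.028), which the brighter probe set did not show as a call (-0.50 ± 0.25, limma adjusted p = 0.138). At day 60 against control it was 1.21 ± 0.35 and did not pass (limma adjusted p = 0.118). The third (mean 471) changed by 0.29 ± 0.18 from day 20 to day 60 and passed in no comparison. Both other probe sets of Tyrp1 rose from day 20 to day 60, by 1.67 ± 0.44 (limma adjusted p = 0.0122) and 1.31 ± 0.30 (limma adjusted p = 0.00432). In both, day 60 array A lay below day 20 array C, so these groups overlapped, unlike in the brighter probe set.

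**Figure D5:**
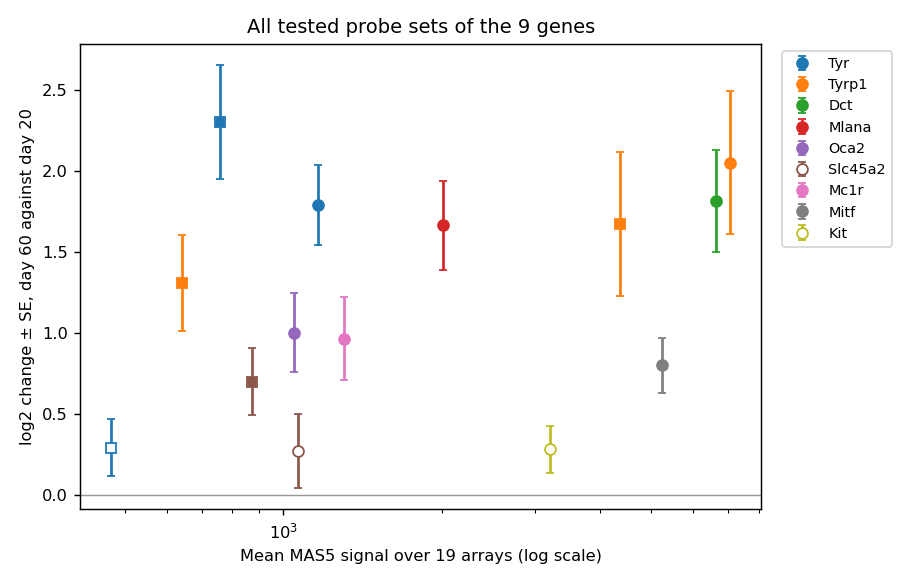
Change from day 20 to day 60 (y axis, log2 with SE bars) of the 14 tested probe sets of the 9 genes against their mean MAS5 signal over 19 arrays (x axis, log scale). Circles are the probe sets used for the gene, squares the others, and filled symbols passed limma's adjusted p of 0.05; open are 1 probe set each of Tyr, Slc45a2 and Kit.

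Other genes of melanocytes gave counts of the same kind from day 20 to day 60. Of 12 such genes 11 were tested. From day 20 to day 60, 7 rose and 1, Ednrb, fell, where 11% of all tested genes rose and 11.2% fell. Without day 20 arrays B and E 4 rose and 0 fell, and the shares of all genes in that fit are not given here. The 7 were Gpr143, Gpnmb, Mcoln3, Pmel, Rab38, Tfap2a and Trpm1, named after their values were seen where the rule for named genes did not hold them. The mean of all 11 correlated with that of the 6 pigment production genes at r = 0.97. Sox10 and Pax3, neural crest transcription factors upstream of Mitf, were -0.08 ± 0.26 and 0.11 ± 0.24 in that comparison and did not pass (limma adjusted p = 0.858 and 0.797).

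Against control, 4 of the 11 passed in some comparison: 2 rose and 1 fell at day 5, 2 rose and 2 fell at day 20, and 0 passed at day 60. Of all tested genes 16.8% were higher and 17.5% lower at day 5, and 15.6% and 14.5% at day 20, so counts of 1 or 2 of 11 are near the background. At day 20 the count of falls ran from 1 without control B or day 20 E to 6 without day 20 C, and that of rises was 1 without control B or E or day 20 A, C, D or E. At day 5 the fall was lost without control B or day 5 B or C, and 1 rise was lost without control B or E or day 5 B, D or E. Tfap2a, a transcription factor of neural crest and epidermis, fell by 1.01 ± 0.34 at day 5 and by 1.85 ± 0.32 at day 20 (limma adjusted p = 0.0271 and 0.000239). Its signal was 7906 ± 1263 in control (SD, n = 5) and 2436 ± 1297 at day 20 (SD, n = 5). Rab38, which routes enzymes to melanosomes, fell by 0.67 ± 0.21 at day 20 (limma adjusted p = 0.0194). Ednrb, the endothelin receptor of melanoblasts that other cells of tissue express too, rose by 1.78 ± 0.35 at day 5 and by 1.77 ± 0.33 at day 20 (limma adjusted p = 0.000635 and 0.000446). Its signal went from 6171 ± 2383 in control to 20393 ± 4119 at day 5 (SD, n = 5 and 4). Tspan10 rose by 0.90 ± 0.31 at day 5 and 0.83 ± 0.29 at day 20 (limma adjusted p = 0.0295 and 0.0376).

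Genes for melanosome biogenesis and transport, which most cell types express, were called in both directions. Of 18 tested, 4 rose and 1 fell at day 5, 0 rose and 3 fell at day 20, 0 passed at day 60, and 3 rose from day 20 to day 60, where the shares of all genes in these directions were 16.8%, 17.5%, 15.6%, 14.5% and, for the last, 11%. The counts of 3 and 4 of 18 are near the background. The 3 rises from day 20 to day 60 became 1 without day 20 array A. The 1 fall at day 5 became 2 without control C or day 5 C. Mlph, which encodes the linker that ties melanosomes to myosin Va, fell by 1.53 ± 0.25 at day 5 (limma adjusted p = 0.000125). Rab32, a relative of Rab38, rose by 1.08 ± 0.28 at day 5 (limma adjusted p = 0.00573). Among 7 tested ligands and modifiers of melanocyte receptors, 0 passed at day 5 and 2 at day 20, where 1 rose and 1 fell. Of all tested genes 15.6% rose and 14.5% fell at day 20, so these counts are near the background. Kitl, the ligand of KIT, rose by 0.44 ± 0.16 at day 20 (limma adjusted p = 0.0493), and Hgf, another melanocyte growth factor, fell by 0.81 ± 0.30 (limma adjusted p = 0.0489). Both calls were lost without any 1 of the 5 control arrays. Of the 3 relatives of Mitf, Tfec rose by 3.08 ± 0.51 at day 5 and 1.85 ± 0.48 at day 20 (limma adjusted p = 0.000129 and 0.00655), and Tfe3 and Tfeb did not pass.

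Markers of other cells that contain Kit or Mitf were read in the same comparisons. Of all tested genes 16.8% were higher and 17.5% lower at day 5, and 15.6% and 14.5% at day 20 against control. From day 20 to day 60 the shares were 11% and 11.2%, and from day 5 to day 60 they were 12.2% and 12.2%. Luminal and glandular epithelium, part of which expresses Kit, was lower in all 8 of its tested markers at day 5 and at day 20. The summed signal of its 9 genes on the array was 64941 to 84484 in control, 7576 to 11042 at day 5, 5902 to 10766 at day 20 and 24668 to 62774 at day 60. Examples are Foxa1 (-5.56 ± 0.54 at day 20, limma adjusted p = 4.1e-07) and Krt18 (-4.82 ± 0.58, limma adjusted p = 4.26e-06), and 8 of 8 rose from day 20 to day 60. The highest treated array of this sum lay below the lowest control. Of 6 tested mast cell genes 2 rose at day 5 and 1 at day 20, namely Hdc (1.83 ± 0.28 at day 20, limma adjusted p = 5.89e-05) and Tpsab1 (1.19 ± 0.22 at day 5, limma adjusted p = 0.000386). The count at day 5 was 1 without control A, D or E or day 5 C, D or E. The count at day 20 was near the share of all tested genes. The summed signal of the 8 mast cell genes on the array ran from 4968 to 8962 in control, 6266 to 8780 at day 5, 5872 to 10556 at day 20 and 5452 to 11024 at day 60, and 2 or 3 of them had a group mean under 300 in each group. Of 9 tested macrophage genes 7 rose at day 5 and 3 at day 20, where 1 fell, with 2 rises at day 20 without day 20 array C and 5 without day 60 array C. The summed signal of the 10 macrophage genes on the array was 48083 to 107357 in control, 193184 to 271505 at day 5, 84303 to 184666 at day 20 and 41524 to 204855 at day 60. Msr1 was 3.10 ± 0.38 and Fcgr3 2.97 ± 0.42 higher at day 5 (limma adjusted p = 6.23e-06 and 2.64e-05). From day 20 to day 60, 1 macrophage gene rose and 2 fell, and from day 5 to day 60, 0 rose and 7 fell. The 2 falls were 0 without day 20 B or C or day 60 C, and 1 without day 20 D or day 60 D. Of the mast cell genes 0 passed from day 20 to day 60 and 1 fell from day 5 to day 60.

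Schwann cells share the neural crest origin of melanocytes. Of 7 of their markers tested, 5 fell at day 5, 2 at day 20, 0 passed at day 60 and 5 rose from day 20 to day 60. Of all tested genes 17.5% fell at day 5, 14.5% at day 20 and 0.765% at day 60 against control. From day 20 to day 60, 11% of them rose and 11.2% fell. Mbp, of myelin, fell by 1.94 ± 0.31 at day 5 (limma adjusted p = 8.74e-05), and the neuregulin receptor gene Erbb3 by 1.58 ± 0.23 at day 20 (limma adjusted p = 3.73e-05). Their summed signal was 59613 to 85189 in control, 32828 to 37627 at day 5, 32632 to 73190.3 at day 20 and 74202 to 128041 at day 60. The 2 falls at day 20 became 4 without day 20 array A. Of 8 adipocyte genes 6 fell at day 5 and 6 at day 20, with Pck1 at -4.85 and Adipoq at -4.64 at day 20 (limma adjusted p = 1.2e-05 and 4.62e-05). At day 60 against control 3 adipocyte genes were lower, and 5 rose and 1 fell from day 20 to day 60. Those 3 were 1 without control A or E, 5 without control B or day 60 D, and 6 without day 60 B. Of 8 skeletal muscle genes 4 fell at day 5, with Actn3 at -2.06 and Ckm at -1.93 (limma adjusted p = 0.0336 and 0.0145), and 0 passed at day 20. The muscle count ran from 0 without day 5 array B to 7 without day 60 array B, and the 5 Schwann cell falls were 3 without day 5 array B. The summed muscle signal was 517210.0 to 878094 in control and 178391 to 547157 at day 5, and the adipocyte sum 145216 to 327039 and 96565 to 112223. The part of these cell types in the values of Kit, Mitf and the other members was not tested.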

How the data were processed

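Each of the 20 arrays gave 1 intensity value per probe set for total RNA. Per the labels' protocols and the submitters' processing notes, the authors made the deposited signal intensities with MAS5 in GCOS 1.3, background corrected and scaled with a factor of 1500. Groups came from the labels, and 1 array with conflicting labels was left out. In R 4.3.3 with limma 3.58.1, log2(signal + 100) was fitted (lmFit, eBayes with trend) over all 19 arrays as 4 group means, 2-sided, with Benjamini-Hochberg adjustment over 13595 genes with a mean signal of at least 300, each read from the probe set of highest mean. Of 45101 probe sets 34958 had 1 symbol, 932 several and 9211 none. No 2 arrays held identical values. The fit was tested on simulated data. Members and the 12 other gene lists were chosen with earlier results of these data known. Named besides the members were genes that passed against control in the lists of melanocyte genes, melanocyte ligands and Mitf relatives, the 2 largest passing changes of each other list, the 3 genes nearest to each member by correlation, and Vegfa. The 15 alternatives besides 19 omissions of 1 array changed the constant (1 or 500), filter (none or 1000), scaling, model, probe set, replicate block, RNA quality term or the placing of the array in no group, and 2 omissions of several arrays were added after seeing the data.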

Additional observations from a re-analysis of the deposited data

Results flagged for a closer look

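Array B of day 5 lay apart below the other 3 arrays of the day 5 group in 3 members. Its Tyr signal was 470.3, its Dct signal 5713 and its Mlana signal 1228, each with a gap to the next array that exceeded Dixon's 95% limit for 4 samples. Of 36 groups of arrays examined, 4 for each of the 9 genes, these 3 passed that limit, and chance gives about 1 in 20. The members of 1 array are not independent of each other. The array in no group, titled as day 5 replicate A, read 11111.1 for Vegfa on the probe set that was high at day 5 and day 20, above the highest control at 467. In the 3 genes above it read close to day 5 array B, with 469.9 for Tyr, 5218 for Dct and 1287 for Mlana, so that with this array counted as day 5, array B would not be alone. Its Kit signal of 2531 was below all controls.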

How the results depend on the processing

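Over the 17 differences called, 34 alternatives planned with the analysis gave 574 values, of which 537 were called and 37 were not, and 0 turned sign. Neither scaling moved the median of all genes by more than 0.1. The count at day 60 against day 20 was 7 to 8 when single arrays were left out, and 6 with the Actb ratio as a covariate. By limma, leaving out single arrays gave 1 to 5 members at day 20 against control, 0 to 2 at day 60 against control and 0 to 1 at day 20 against day 5, 1 at day 5 against control throughout and 3 to 4 at day 60 against day 5. Array weights gave 2 members at day 60 against control, as did the Actb ratio as a covariate (2). Fitting only both compared groups gave 2 at day 20 and 0 at day 60 against control. The probe set with the highest variance gave 0 at day 5 and 0 at day 60 against control, and those of Kit and Mitf were under the filter. Placing the array without a group at day 5 gave 2 members at day 5 against control and 5 at day 60 against day 5. Placing it with the controls gave 0 at day 5, 2 at day 20 and 0 at day 60 against control, and 0 at day 20 against day 5. That array read outside the control range in Vegfa, in the luminal epithelium sum (8993) and in the macrophage sum (222676). Chosen after seeing the data, leaving out day 60 arrays A, B and D gave 0 at day 60 against control. Leaving out day 20 arrays B and E, also chosen after seeing the data, gave 1 at day 20 against control and 0 at day 20 against day 5. The shares of all tested genes called in these fits are not given here, so the counts describe the members only. The cause of these changes was not tested.

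The replicate letters were not shown to pair the arrays. Over 27 pairs of arrays with the same letter in different groups, the correlation of their deviations ran from -0.27 to 0.35, and 3 of 19 arrays correlated best with their own letter. With the letter as a replicate block, 0 members were called at day 20 against day 5, 3 at day 20 against control and 7 at day 60 against day 20. The shares of all genes in that fit are not given here.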
